A study of Mus musculus with 6 samples.

Results

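The genes described here encode 9 structural proteins of the cardiac Z-disc: Actn2, Ldb3, Tcap, Myoz2, Mypn, Nebl, Pdlim5, Des and Flnc. They were taken from the table by gene symbol, and each symbol matched 1 row of the 25901 rows of the expression table. All 9 were among the 10201 rows that could be tested. RNA of whole hearts was sequenced from 3 wild-type mice (WT2368, WT2379 and WT2378) and 3 mice named SRAKO (SRAKO2365, SRAKO2371 and SRAKO2372). Every mouse of either genotype had received isoproterenol for 4 weeks, an agonist of beta-adrenergic receptors used to provoke cardiac hypertrophy. The series title names the steroid receptor RNA activator, the transcript of Sra1, as the target. The sources used here do not give the strain, sex, age or litter of the mice, the part of Sra1 that was removed, or the cells in which it was removed. The values compare genotypes under isoproterenol; no untreated muscle was analysed here.

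The Z-disc is the border between neighbouring sarcomeres, where actin filaments of opposite polarity overlap and are cross-linked by alpha-actinin. It anchors titin, the spring that runs to the middle of the sarcomere, and ties the myofibril to the desmin filaments and to the cell membrane. Many of its proteins also hold signalling enzymes such as calcineurin and protein kinase C, and mutations in several of its genes cause human cardiomyopathy. Its turnover relies on chaperones such as BAG3, and many of its genes are targets of the transcription factors SRF, which binds the CArG box, and MEF2.

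Promoter sequences were available for 8 of the 9 genes, as 14 windows of 300 bases around RefSeq transcript starts on GRCm38.p6. The stretches that hold a CArG box or a MEF2 site are printed because these are the elements of SRF and MEF2, and the levels of those factors are given with the regulators. All 3 are on the minus strand and are written 5′ to 3′, with the element in capitals. The element starts 35 bases before the RefSeq start in Ldb3 (chr14:34588682-34588756), 33 bases before it in Myoz2 (chr3:123034988-123035060) and 162 bases before it in Nebl (chr2:17462969-17463058).
Ldb3 CArG box: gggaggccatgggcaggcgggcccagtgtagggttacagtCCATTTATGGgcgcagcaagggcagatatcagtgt
Myoz2 MEF2 site: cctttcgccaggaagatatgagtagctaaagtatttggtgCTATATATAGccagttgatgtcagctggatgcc
Nebl CArG box: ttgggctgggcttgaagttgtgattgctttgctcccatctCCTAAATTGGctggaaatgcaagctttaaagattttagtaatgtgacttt

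The motifs were searched on either strand, and a match describes letters in a window and not a bound site. A CArG box lay in 3 of the 14 windows, from Ldb3 and Nebl, against 1.63% of all 32851 windows in the table. The Ldb3 box is counted in 2 windows because those windows overlap. A MEF2 site lay in 1 window, that of Myoz2, against 3.19% of all windows. The E-box pattern CANNTG was found in 8 of 14 windows, against 72.3% of all, and TATAAA in 2, from Mypn and Pdlim5, against 13.6%. The GATA pattern AGATAA lay in 2 windows, each of Nebl, against 11.2%. The full palindromic elements of glucocorticoid or androgen receptors and of estrogen receptors had 0 matches in these windows, against 0.00913% and 0.07% of all windows.

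Expression was measured as FPKM, a level per transcript length and library size, and values of the 6 hearts are given in the order WT2368, WT2379, WT2378, SRAKO2365, SRAKO2371, SRAKO2372. Nothing in the labels says that the hearts came from separate animals beyond their different numbers, so p-values measure the spread between these samples. The row of Sra1 read 4.40, 6.31 and 4.23 in WT and 1.96, 1.78 and 2.05 in SRAKO, 38.8% of WT on average. WT2368 and SRAKO2371 stood apart from the other hearts by structural RNA. A nuclear ribosomal RNA row (AY036118 with CT010467.1) read 6242 and 3003 in those hearts and 273 to 595 in the other 4, and Rn7sk read 242 and 114 against 2.12 to 15.1. The ventricular marker list (10 of 10 tested, 8 higher in SRAKO and 0 called) summed to 12724 to 15813 in WT and 14097 to 14175 in SRAKO, with its lowest sum in WT2368.

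No Z-disc gene differed between genotypes after adjustment. In limma's fit over all tested rows, 0 of the 9 genes passed a Benjamini-Hochberg adjusted p of 0.05, where 0.0196% of all rows did. None of the 9 had an unadjusted p under 0.05 either, against 3.46% of all rows (1.9% higher and 1.56% lower in SRAKO), and the adjusted p was 0.999 for each. In SRAKO hearts 8 genes had a lower mean on the log2 scale and Des a higher one. Of all 10201 tested rows, 4744 were lower and 5457 higher. The median log2 difference, SRAKO minus WT on log2(FPKM + 1), was -0.07 for the 9 genes and 0.01 for all tested rows. Myoz2 was the only gene of the 9 whose genotypes did not overlap (8.05% of all tested rows did not overlap, 3.76% with SRAKO lower and 4.28% with SRAKO higher). In RNA of whole hearts, fewer cells of a type and less RNA per cell cannot be told apart.

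**Figure D1:**
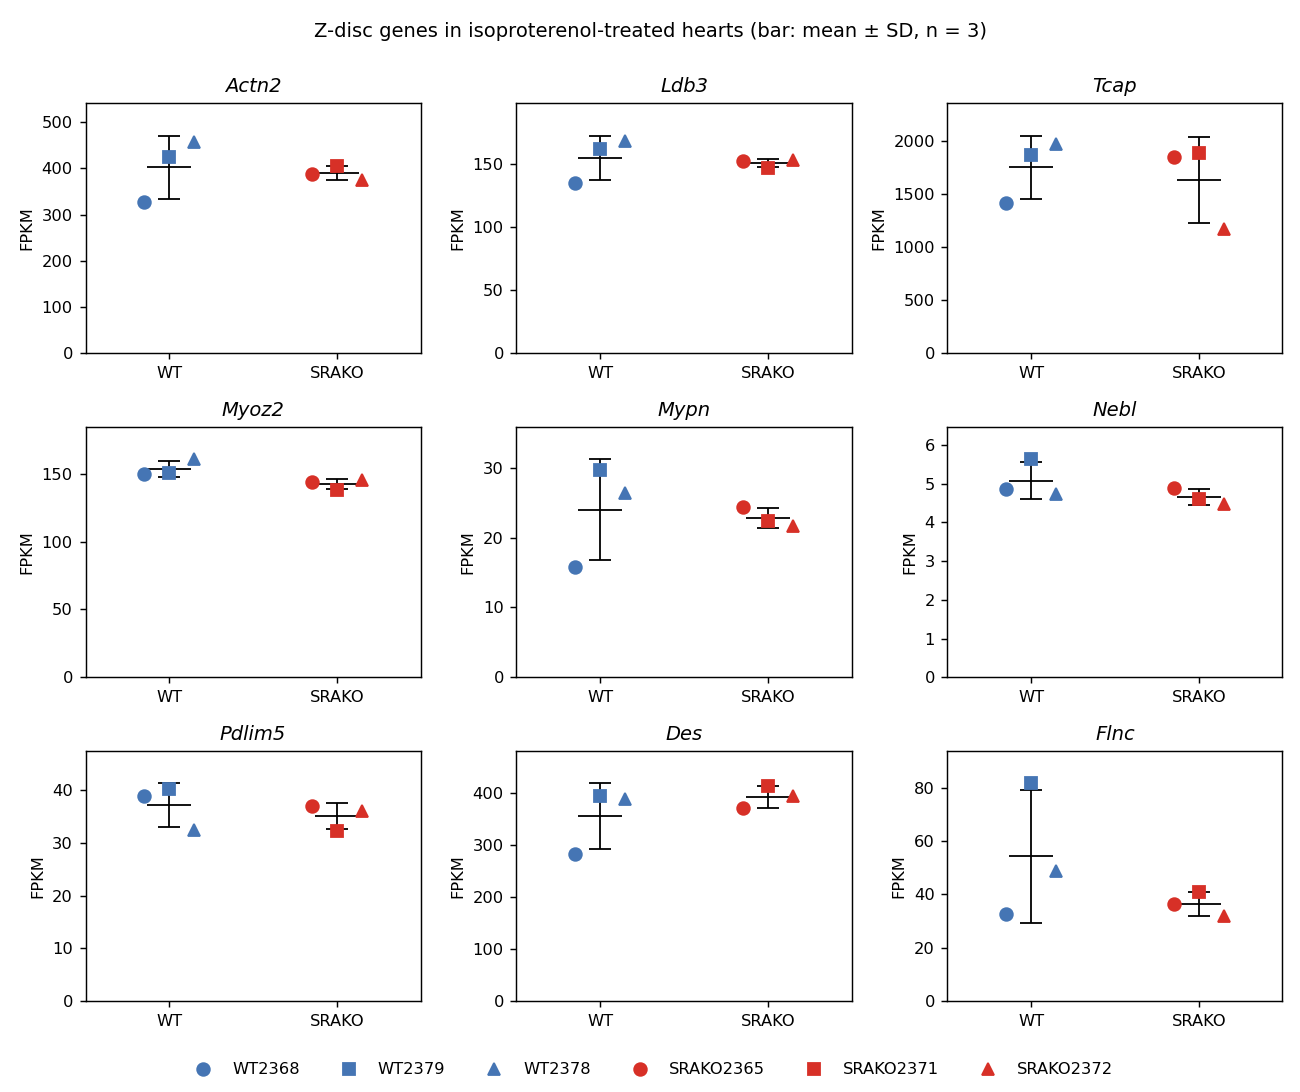
FPKM of the 9 Z-disc genes in each heart (vertical axes in FPKM from 0, horizontal axis genotype; each symbol is 1 heart, bars show mean ± SD, n = 3). The genotypes overlap in every panel but Myoz2, WT2368 is the lowest heart for Actn2, Ldb3, Mypn and Des, and WT2379 stands above the others for Flnc.

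Actn2 encodes sarcomeric alpha-actinin, the main cross-linker of actin in the Z-disc (GRCm38 chromosome 13, 12269426 to 12340760, minus strand). Its FPKM was 327, 424 and 458 in WT hearts and 388, 406 and 375 in SRAKO hearts. The SRAKO values lay inside the WT range, and WT2368 was the lowest heart. WT hearts averaged 403 ± 68.2 and SRAKO hearts 390 ± 15.4 (SD, n = 3 each), a log2 difference of -0.03 (SE 0.15, limma unadjusted p = 0.819). The 95% interval of that difference ran from 0.772-fold to 1.23-fold.

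Ldb3 and Pdlim5 encode PDZ-LIM proteins, Cypher/ZASP and ENH, which bind alpha-actinin through the PDZ domain and recruit protein kinases. Ldb3 (chromosome 14, 34526603 to 34588664, minus strand) read 135, 162 and 168 in WT and 152, 147 and 154 in SRAKO. As for Actn2, the SRAKO hearts lay between the WT extremes, and the log2 difference was -0.03 (SE 0.12, limma unadjusted p = 0.800). Pdlim5 (chromosome 3, 142239590 to 142395696, minus strand) was lower in abundance, at 38.9, 40.2 and 32.5 in WT and 37.1, 32.3 and 36.0 in SRAKO. WT2378, the highest heart for Ldb3, was the lowest WT heart for Pdlim5, and the Pdlim5 difference was -0.07 (SE 0.12, limma unadjusted p = 0.548) and ran from -0.17 to -0.017 with 1 heart left out. The row of Pdlim5 combines 16 transcripts, 3 of them assembled by the authors' pipeline, so isoforms were not separated.

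Tcap encodes telethonin, the small protein that caps the titin amino terminus in the Z-disc. Its gene is compact (chromosome 11, 98383811 to 98384953, plus strand, 2 exons), and it was the most abundant of the 9 RNAs per length. FPKM was 1415, 1874 and 1979 in WT and 1851, 1894 and 1169.8 in SRAKO. SRAKO2372 had the lowest value of all 6 hearts, below WT2368, and the other SRAKO hearts lay among the higher WT values. The means were 1756 ± 300.001 and 1638 ± 406 (SD, n = 3 each), with a log2 difference of -0.12 (SE 0.22, limma unadjusted p = 0.605) and a 95% interval on the log2 scale of -0.63 to 0.39. Without SRAKO2372 the log2 difference was 0.11, so its sign rests on that heart.

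Myoz2 encodes calsarcin-1, which tethers calcineurin to alpha-actinin and restrains its signalling (chromosome 3, 123006206 to 123035015, minus strand). It read 149.9, 150.5 and 161 in WT and 144, 138 and 145 in SRAKO. All 3 SRAKO hearts lay below all 3 WT hearts, with means of 154 ± 6.04 and 142 ± 3.67 (SD, n = 3 each), 92.7% of WT. The log2 difference was -0.11 (SE 0.10, limma unadjusted p = 0.307), with a 95% interval from 0.792-fold to 1.09-fold. By exact permutation, two-sided, p was 0.1, the smallest that 3 against 3 hearts allow. Myoz2 varied little between hearts of 1 genotype: 2.47% of tested rows had a smaller residual SD. In limma the spread of each row is drawn toward that of rows of like abundance.

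Mypn and Nebl encode myopalladin, which links alpha-actinin to the nebulin family, and nebulette, the cardiac member of that family. Mypn (chromosome 10, 63115795 to 63203952, minus strand) read 15.8, 29.6 and 26.4 in WT and 24.4, 22.3 and 21.7 in SRAKO. WT2368 was far below the rest, which put the SRAKO hearts inside the WT range, and the log2 difference was -0.03 (SE 0.21, limma unadjusted p = 0.910). Nebl (chromosome 2, 17343909 to 17731464, minus strand) was the least abundant of the 9 per length, at 4.87, 5.62 and 4.73 in WT and 4.88, 4.61 and 4.47 in SRAKO. SRAKO2365, the highest SRAKO heart, lay above WT2378 and just above WT2368. The log2 difference was -0.10 (SE 0.09, limma unadjusted p = 0.316). The Nebl row combines 12 transcripts of long and short forms, which cannot be told apart here.

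Des and Flnc encode the proteins that connect the Z-disc outward: desmin forms the intermediate filaments around it, and filamin C cross-links actin at its rim, at the membrane and at intercalated discs. Des (chromosome 1, 75360329 to 75368579, plus strand) read 283, 395 and 389 in WT and 372, 413 and 395 in SRAKO. Its means of 356 ± 63.3 and 393 ± 20.9 (SD, n = 3 each) gave a log2 difference of 0.16 (SE 0.15, limma unadjusted p = 0.326). WT2368 was the low heart, and without it the difference was 0.00. Des RNA is also made by smooth muscle, whose markers (8 of 8 tested, 7 higher in SRAKO and 0 called) summed to 281 to 360 in WT and 348 to 353 in SRAKO, likewise with WT2368 lowest. Acta2 made up 122 to 185 of that sum. Myh11 read 11.4, 10.2 and 14.3 in WT and 15.8, 15.6 and 17.1 in SRAKO, without overlap (limma unadjusted p = 0.0142, adjusted p = 0.999). Cnn1 had a lower SRAKO mean. The part of smooth muscle in the Des values was not tested.

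Flnc (chromosome 6, 29433256 to 29461883, plus strand, up to 48 exons) had the largest difference and the widest spread of the 9 on the log2 scale. It read 32.7, 81.6 and 48.7 in WT and 36.5, 41.0 and 32.1 in SRAKO. WT2379 was above every other heart, WT2378 came next, and WT2368 lay inside the SRAKO range. The means were 54.3 ± 24.9 and 36.5 ± 4.46 (SD, n = 3 each), 67.2% of WT, and the log2 difference was -0.47 (SE 0.29, limma unadjusted p = 0.149). The 95% interval ran from 0.45-fold to 1.16-fold, and the exact two-sided permutation p was 0.3. Residual SD was smaller in 96.8% of tested rows, and without WT2379 the log2 difference was -0.13. Atrial markers (8 of 8 tested, 1 higher in SRAKO and 0 called) moved with Flnc in that heart. They summed to 8540 in WT2379 against 2532 to 3810 in the other 5. Nppa alone made up 6576 of the sum in WT2379 and read 1651 to 2469 in the other hearts. Every atrial marker was highest in WT2379, but Kcnj3 (3.5 against 1.7 to 3.3) and Tbx5 (21.0 against 13.1 to 18.6) only slightly. The part of atrial tissue in the Flnc values was not tested.

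**Figure D2:**
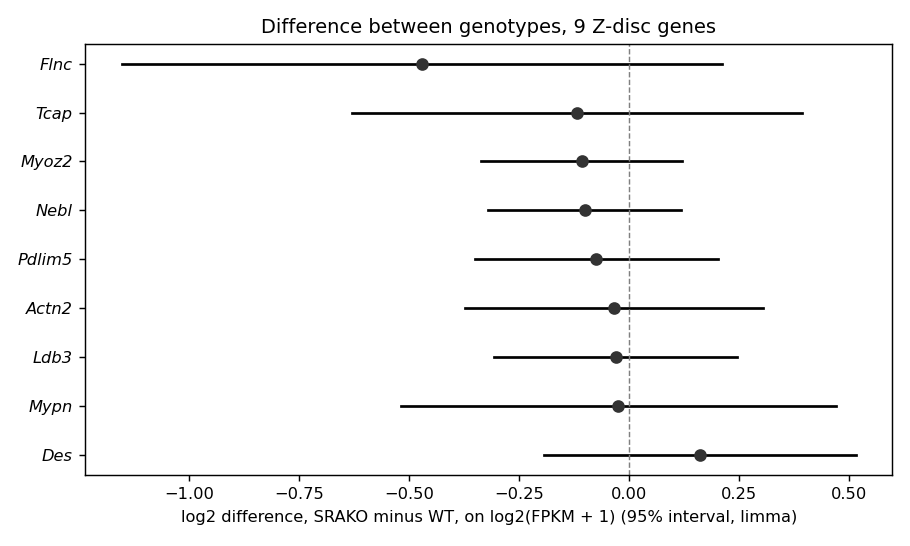
Log2 difference between genotypes (SRAKO minus WT on log2(FPKM + 1), horizontal axis) for each Z-disc gene, with its 95% interval from limma. Every interval spans 0, from the widest for Flnc (-1.15 to 0.21) to the narrow ones of Nebl (-0.32 to 0.12) and Myoz2 (-0.34 to 0.12).

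The spread within genotypes was uneven. The coefficient of variation was larger in WT than in SRAKO for 8 of the 9 genes, for example 16.9% against 3.96% for Actn2, 30.1% against 6.16% for Mypn and 45.9% against 12.2% for Flnc. Tcap was the exception, at 17.1% in WT and 24.8% in SRAKO. The difference in spread was not tested. WT2368 held the lowest value of Actn2, Ldb3, Mypn and Des, and SRAKO2372 the lowest of Tcap, Nebl and Flnc. The highest value was in a WT heart for 8 of the 9 genes, 4 in WT2379 and 4 in WT2378, and Des was highest in SRAKO2371. WT2379 was above the row mean in 9 of 9 genes. The median deviation of the 9 genes from their row means was -0.24 in WT2368 on the log2 scale, 0.15 in WT2379 and 0.14 in WT2378, and 0.00, -0.05 and -0.07 in the SRAKO hearts. Over all tested rows the same medians were -0.10, 0.05, 0.04, 0.01, -0.01 and 0.02.

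WT2368 therefore bears on how the genotypes compare. It was the lowest WT heart for Actn2, Ldb3, Tcap, Myoz2, Mypn, Des and Flnc, so leaving it out moves their differences down by construction. The values without it are given as a description. Without it, 5 Z-disc genes (Actn2, Ldb3, Myoz2, Mypn and Flnc) were lower in all SRAKO hearts than in the remaining 2 WT hearts, where 18.5% of all tested rows showed that pattern. Mypn then had a log2 difference of -0.29 (limma unadjusted p = 0.0185) and Flnc -0.78 (limma unadjusted p = 0.0132), against 5.23% of rows lower at an unadjusted p under 0.05. The smallest adjusted p among the 9 was 0.714 in limma, so 0 were called. With SRAKO2371, the other heart high in ribosomal RNA, also left out, 6 genes were lower in SRAKO without overlap, against 26.3% of rows lower without overlap. Actn2 (-0.21), Mypn (-0.27) and Flnc (-0.86) then had unadjusted p of 0.0446, 0.0463 and 0.0172 in limma, against 4.53% of rows lower at an unadjusted p under 0.05, and the smallest adjusted p was 0.727. Without WT2379, 5 of the 9 were lower in SRAKO, with a median of -0.02 against 0.04 for all tested rows. Actn2, Ldb3, Tcap, Nebl, Pdlim5 and Flnc were then nearer to 0. Mypn (0.14), Des (0.24) and Myoz2 (-0.12) were further from 0 than with all hearts.

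**Figure D3:**
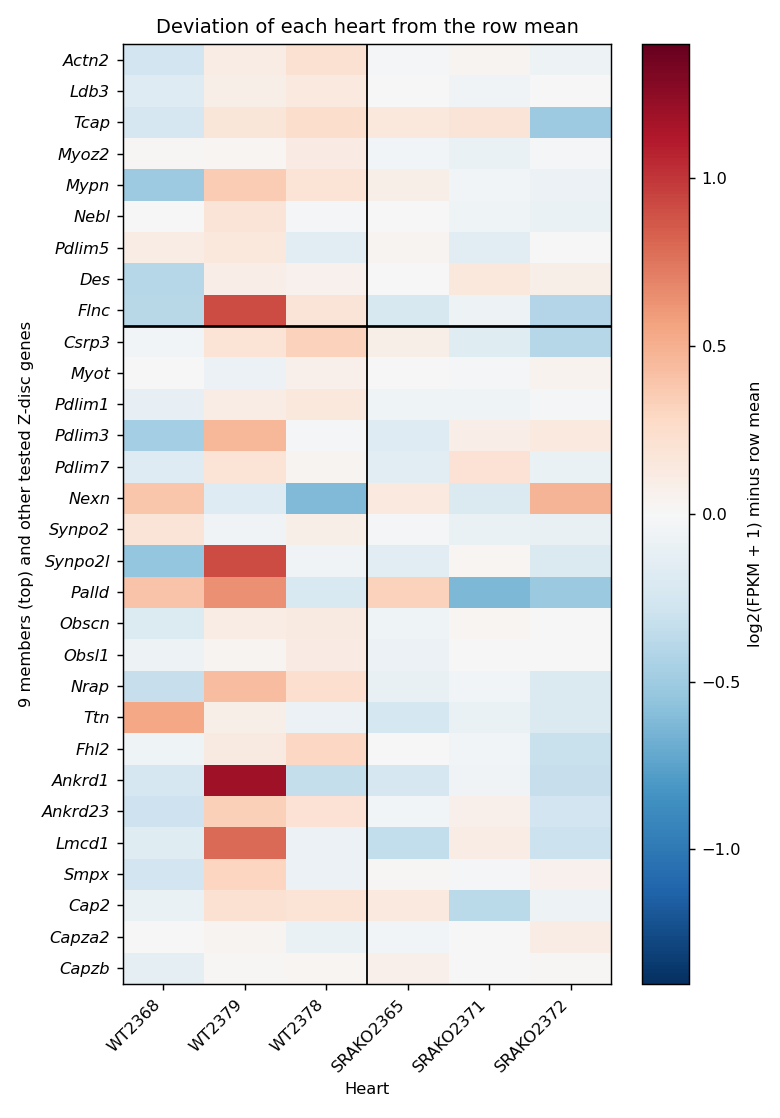
Deviation of each heart from the row mean, as log2(FPKM + 1), for the 9 Z-disc genes (above the line) and 21 other tested Z-disc genes (columns are hearts, WT left and SRAKO right of the line). WT2368 is low for Mypn, Des and Flnc but high for Ttn, WT2379 is high for Flnc, Ankrd1 and Synpo2l, and SRAKO2372 is low for Tcap and Csrp3.

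Proportions among the 9 RNAs also differed by heart. Tcap made up 58.9%, 59.2% and 60.6% of their summed FPKM in WT and 61.5%, 61.1% and 50.1% in SRAKO. Actn2 made up 13.6%, 13.4% and 14.0% in WT and 12.9%, 13.1% and 16.1% in SRAKO, its high share in SRAKO2372 standing beside the low Tcap. Flnc held 2.58% in WT2379 and 1.21% to 1.49% in the other hearts. Of the 36 ratios between pairs of genes within a heart, 3 did not overlap between genotypes, where 8.05% of all tested rows did not overlap as single genes. The ratios share genes and are not independent, and no share over other gene pairs was computed. Desmin to alpha-actinin was 0.865, 0.932 and 0.849 in WT and 0.957, 1.02 and 1.05 in SRAKO, so that each SRAKO heart held more Des per Actn2. Des to Flnc was 8.65, 4.85 and 7.98 in WT and 10.2, 10.1 and 12.3 in SRAKO, and Mypn to Flnc was 0.485, 0.363 and 0.543 against 0.668, 0.545 and 0.677. The exact permutation p of each was 0.1, the smallest possible, and 0.72 after Benjamini-Hochberg adjustment over the 36 ratios. The ratio of Ldb3 to Actn2 stayed between 0.363 and 0.413 in all hearts.

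The 9 genes ran differently across hearts. Pearson's r of log2 values over the 6 hearts ranged from -0.49 (Actn2 with Pdlim5) to 0.92 (Actn2 with Ldb3) over the 36 pairs, with a median of 0.41 and 29 pairs above 0. These values share libraries and scaling and are given as a description. Among other genes, those whose profile was most like the mean of the 9 were Khdrbs1 (r = 0.997), Stat3 (0.994), Emilin1 (0.991), Ctsa (0.989) and Klhl41 (0.988). Klhl41, a kelch protein of muscle, read 11.2, 25.3 and 18.2 in WT and 16.0, 15.2 and 13.3 in SRAKO. Khdrbs1, with the highest r, read 3.39, 4.76 and 4.39 in WT and 4.02, 4.06 and 3.67 in SRAKO. Klhl41 and Khdrbs1 were picked for their likeness to the mean, so their low in WT2368 and high in WT2379 are no separate result.

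Other genes of the Z-disc gave a like result. Of 26 listed, 21 were tested. SRAKO means were higher for 6 and lower for 15, the median was -0.14, and 0 were called. Ttn, which encodes titin, read 13.0, 9.17 and 8.10 in WT and 7.08, 8.03 and 7.33 in SRAKO. Over all tested rows 8.05% did not overlap, 3.76% with SRAKO lower. Of the 21 tested genes of this list, only Ttn did not overlap (log2 -0.36, limma unadjusted p = 0.0550). WT2368, low for Actn2, was its highest heart, and without WT2368 its log2 difference was -0.18. Ankrd2, too low to be tested, read 0.250, 0.563 and 0.232 in WT and 0.0393, 0.0904 and 0.0394 in SRAKO, also without overlap. Csrp3, the LIM protein MLP of the Z-disc, read 184, 216 and 236 in WT and 200, 168 and 143 in SRAKO (log2 -0.32, limma unadjusted p = 0.0765). SRAKO2365 lay inside the WT range, and SRAKO2372 was lowest, as for Tcap. Palld, the actin-binding relative of Mypn, read 15.6, 18.6 and 9.93 against 14.8, 7.18 and 7.79 (log2 -0.55, limma unadjusted p = 0.0994).

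Ankrd1, a stretch-responsive ankyrin repeat protein that binds titin, read 325, 869 and 302 in WT and 324, 368 and 305 in SRAKO. Apart from WT2379 its hearts spanned 302 to 368 in either genotype. Synpo2l, an actin-bundling protein of the Z-disc, also peaked in WT2379, at 18.6, 52.7 and 26.5 against 24.4, 28.0 and 23.7. Nexn, the actin-binding protein nexilin, varied in another order, at 28.8, 19.2 and 13.9 against 24.2, 19.0 and 30.8. Myot, which encodes myotilin, was nearly level at 31.9, 30.2 and 33.7 in WT and 31.9, 31.8 and 33.1 in SRAKO, a log2 difference of 0.01 that was -0.02 after rescaling each heart by 7 sarcomere genes. Of the 10 skeletal muscle markers 9 were in the table and only Myot was tested. Of the others, Myh1 and Myh2 read at most 0.0182 and Tnni2 0.863 to 1.402, and Tnnt3 read 2.04 in WT2379 and 1.53 in SRAKO2371 against 0.112 to 0.380 in the other hearts.

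Among paralogs of the 9 genes, such as the non-muscle actinins and filamins, 10 of 14 were tested, 4 higher and 6 lower, with a median of -0.04 and 0 called. Flna, the broadly expressed filamin, was at 0.15 (limma unadjusted p = 0.315), and Nes, the intermediate filament nestin, at -0.19. The skeletal muscle counterparts were low and untested: Actn3 read 0 to 0.0971, Neb 0.107 to 0.194, Myoz1 0.0591 to 0.179 and Myoz3 0 to 0.0385. Of the chaperone and turnover genes, 17 of 18 were tested, 10 higher and 7 lower, with a median of 0.01 and 0 called. Bag3, the co-chaperone of filamin turnover, read 68.7, 83.8 and 77.8 in WT and 79.4, 79.2 and 77.9 in SRAKO. Cryab, the small heat shock protein that protects desmin, read 276, 331 and 330 against 304, 325 and 308. In either gene the SRAKO hearts lay inside the WT range. Stub1, the ubiquitin ligase CHIP, was the only tested gene of this list without overlap, where 8.05% of all tested rows did not overlap. It read 10.1, 11.3 and 11.3 against 11.9, 12.3 and 12.5 (log2 0.15, limma unadjusted p = 0.136). Its row also carries Gm20683, Mir3082, Rhbdl1, Rhot2 and Wdr90, so reads of these genes cannot be separated. Unc45b, a myosin chaperone, was at -0.16 and Fbxo32, the muscle ubiquitin ligase atrogin-1, at -0.14 on the log2 scale, each with overlap.

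In the desmin network and costamere list, 21 of 23 were tested, 8 higher and 13 lower, with a median of -0.07 and 0 called. Parva, an actin-binding partner of integrin-linked kinase, read 3.70, 1.81 and 1.43 in WT and 4.07, 3.76 and 4.31 in SRAKO. All SRAKO hearts were above all WT hearts (log2 0.67, SE 0.23, limma unadjusted p = 0.0190, adjusted p = 0.999), but WT2368 lay close to them. Lims2, another protein of that complex, read 25.9, 13.4 and 31.6 against 13.9, 14.3 and 15.2 (log2 -0.59, limma unadjusted p = 0.0623), with WT2379 below every SRAKO heart. Sync, the desmin-binding protein syncoilin, was at -0.19 with overlap. Sgcb, a sarcoglycan of the membrane complex, was lower in all SRAKO hearts, at 20.8, 24.04 and 21.9 against 19.6, 19.5 and 19.5 (log2 -0.18, limma unadjusted p = 0.104). The thick filament, thin filament and M-band list had 15 of 16 tested, 10 higher and 5 lower, a median of 0.04 and 0 called. Its smallest p were those of Myl2, Lmod2 and Actc1, each overlapping. The log2 differences were 0.19 for Myl2, the ventricular light chain, -0.18 for Lmod2, an actin nucleator, and -0.15 for Actc1, cardiac actin. Myom1, myomesin of the M-band, did not overlap, at 114, 112.1 and 113 against 111.8, 95.8 and 107 (log2 -0.11). In the list of calcineurin and mechanosensing genes, 15 of 16 were tested, 6 higher and 9 lower, with a median of -0.01 and 0 called. Xirp2, an actin-binding repeat protein of intercalated discs and Z-discs, read 22.0, 25.7 and 16.3 in WT and 17.1, 15.6 and 15.0 in SRAKO (log2 -0.38, limma unadjusted p = 0.0472). Prkce, the protein kinase C isoform that is found at Z-discs, read 2.74, 3.34 and 2.63 against 2.61, 2.57 and 1.32 (log2 -0.32), without overlap but with SRAKO2365 just under WT2378. Without SRAKO2372 its log2 difference was -0.11. The non-overlapping genes Sgcb, Myom1 and Ankrd2 and the low paralogs were named after their values were seen. Of the 21 tested genes in the desmin network list, 1 was higher and 1 lower without overlap. The filament and calcineurin lists each had 1 of 15 without overlap, where 8.05% of all tested rows did not overlap.

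**Figure D4:**
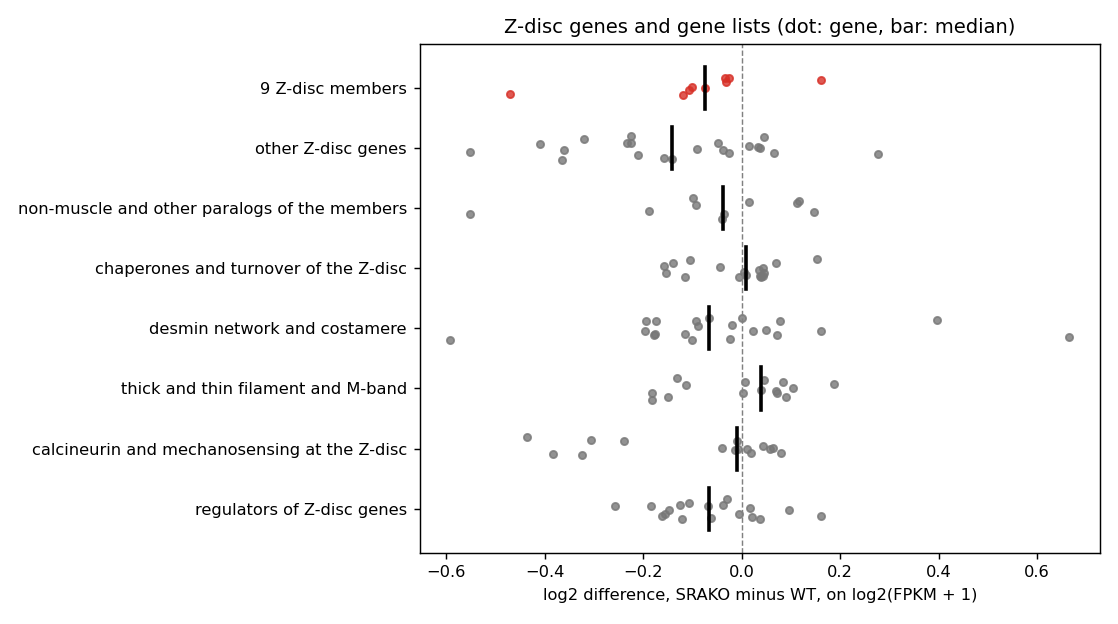
Log2 difference between genotypes (SRAKO minus WT on log2(FPKM + 1)) of each tested gene in the 9 Z-disc genes and 7 lists of partners and neighbours, 1 point per gene. The lists lie around 0, from a median of -0.14 for other Z-disc genes to 0.04 for thick and thin filament and M-band, and 0 genes passed the adjusted threshold.

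Regulators of Z-disc genes were measured too, with 18 of 21 tested, 5 higher and 13 lower, a median of -0.07 and 0 called. Srf, the factor that binds CArG boxes such as those of Ldb3 and Nebl, read 22.9, 32.4 and 29.6 in WT and 25.0, 25.0 and 23.6 in SRAKO (log2 -0.18). Its SRAKO hearts lay inside the WT range, with WT2368 lowest. Myocd, the cardiac coactivator of SRF, read 4.26, 5.57 and 5.49 against 4.39, 3.82 and 4.07 (log2 -0.26, limma unadjusted p = 0.0562), with a single SRAKO heart above WT2368. Mef2a and Mef2d, of the family that binds sites such as that of Myoz2, were at -0.04 and -0.13. The RNA-binding splicing factors Celf1 and Rbfox1 were at -0.16 and 0.16, with overlap. Srf, Mef2a and Mef2d were named after their values were seen, for the printed elements.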

How the data were processed

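The authors deposited FPKM per gene for 6 hearts in a single table. Reads were handled with StringTie 1.3.4d, HISAT2 2.0.4, cutadapt 1.9 and edgeR, per the submitters' processing notes, and per the labels' protocols libraries were made with oligo(dT) beads. The notes name the human build hg38, but the identifiers are of mouse genes, and 99.6% of 81263 Ensembl transcript identifiers matched GENCODE M21 on GRCm38, from which positions were taken. Strand is not given in the sources used here, so overlapping antisense reads cannot be told apart.

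Rows that reached an FPKM of 1 in 3 or more of the 6 hearts were tested on log2(FPKM + 1) with limma 3.58.1 in R 4.3.3. The two-sided moderated test used a variance trend, a prior of 3.69 degrees of freedom, Benjamini-Hochberg adjustment over all tested rows and a threshold of 0.05. The scale understates changes of low genes. The code was tested on simulated data. Depth is known only in part: read as steps of 1 aligned base, an FPKM of 1 stood for 8297 to 13098 bases per kilobase, but only 52.2% to 62.9% of low rows fell on whole steps within 0.05, so no count test was run.

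The genes and lists were chosen with earlier results of these data known. Named are all 9 genes, Sra1, up to 3 genes per list with the smallest p, Csrp3, Myot, Bag3, Cryab, Nexn, Synpo2l, Ttn and Ankrd1, and the 5 genes most like the mean of the 9. Alternatives were pseudocount, filter, rescaling, variance trend, array weights, summed rows and omitted hearts. Of the 11 marker lists, those not given beside a result are in the closing section.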

Additional observations from a re-analysis of the deposited data

How the results depend on the processing

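The number of Z-disc genes called was 0 under every alternative run. Their median log2 difference stayed below 0 throughout, from -0.13 to -0.02 with 1 heart left out. Without WT2368 it was -0.13, against -0.04 for all tested rows. It was also -0.13 with array weights, where WT2368 had a weight of 0.275 and the median of all tested rows was -0.02. In that setting Flnc alone of the 9 had a limma unadjusted p under 0.05, against 6.62% of all rows, and the smallest adjusted p was 0.748. All 8 genes with a lower mean kept that direction with all hearts in, and Nebl was not tested at a minimum FPKM of 5. With 1 heart left out, 5 of the 9 were lower without WT2379, 5 without WT2378 and 6 without SRAKO2372. Over all tested rows, 2 were called, against 1 with a pseudocount of 0.1, 0 with no filter, 1 at a minimum FPKM of 5, 0 without WT2368 and SRAKO2371, 0 with that pair of hearts as an added term, and 0 to 6 with 1 heart left out. The median of the calcineurin and mechanosensing list was -0.24 at a minimum FPKM of 5 and -0.15 to 0.10 with 1 heart left out. In that last setting the desmin network median ran from -0.14 to 0.012 and that of the paralogs from -0.088 to 0.016. That of the chaperone list was -0.16 without WT2368 and SRAKO2371 and -0.11 to 0.048 with 1 heart left out, and that of the thick and thin filament list was -0.051 to 0.078 in that setting. Without WT2368 and SRAKO2371, Pdlim5 was at 0.017, Des at -0.033, Bag3 at -0.037 and Cryab at -0.11. With array weights Bag3 was at -0.022 and Cryab at -0.064, and Cryab was at -0.011 after median-ratio rescaling. After rescaling by sarcomere genes Cryab was at -0.031 and Myot at -0.020. With 1 heart left out, the sign turned for Actn2 (-0.18 to 0.065), Ldb3 (-0.13 to 0.031), Tcap (-0.27 to 0.11), Mypn (-0.29 to 0.14), Nppa (-0.87 to 0.13), Myot (-0.024 to 0.053), Bag3 (-0.034 to 0.11), Cryab (-0.081 to 0.048), Synpo2l (-0.55 to 0.18) and Ankrd1 (-0.68 to 0.079). The cause was not tested. No paired analysis was possible because the numbers in the titles differ for every heart.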

Other observations

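Genes with a profile like that of single Z-disc genes were looked up after the values were seen and are given as a description. They were picked by Pearson's r among the tested rows, so a shared highest or lowest heart is favoured by the choice. Rhoc (r = 0.994), Otud1 (0.992), Klhdc10 (0.992), Ostc (0.991), Zfp608 (0.991), Ccz1 (0.990) and Ino80 (0.990) ran closest with Flnc over 6 hearts. Abra, an actin-binding activator of SRF signalling in muscle, came after them (Pearson's r = 0.989). It read 16.6, 43.7 and 22.4 in WT2368, WT2379 and WT2378 and 17.2, 19.2 and 13.9 in SRAKO2365, SRAKO2371 and SRAKO2372. Xirp1, a repeat protein of the intercalated disc, read 25.2, 96.5 and 46.6 in WT and 36.7, 45.5 and 41.2 in SRAKO. Nppa, the atrial natriuretic peptide, read 1651, 6576 and 2469 in WT and 2424, 1829 and 2436 in SRAKO. Xirp1 and Nppa are from the calcineurin and mechanosensing list and not from that search. In Abra, Xirp1 and Nppa WT2379 was the highest heart, as for Flnc. Hcn4, a pacemaker channel, ran with Tcap (r = 0.994) at 1.96, 2.66 and 2.91 in WT and 2.61, 2.88 and 1.46 in SRAKO, with SRAKO2372 lowest.

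Marker lists of other cell types had 0 genes called. Summed FPKM was 161 to 194 in WT and 173 to 179 in SRAKO for fibroblasts, with 2 of 8 tested markers higher in SRAKO. The endothelial sum was 265 to 273 against 278 to 294, but 3 of 8 markers were higher and their median log2 difference was -0.03. Fabp4, the most abundant of them, averaged 92.3 ± 13.7 (WT) against 114 ± 17.0 (SRAKO; SD, n = 3 each), and Kdr, Tie1, Emcn and Cdh5 had lower SRAKO means. Macrophage markers summed to 85.3 to 99.3 against 101 to 114 (6 of 7 higher), and neutrophil markers to 1.20 to 10.8 against 3.25 to 53.8 (3 of 3 tested higher). Adipocyte markers summed to 52.7 to 86.0 against 47.6 to 328 (7 of 7 tested higher), erythroid markers to 1397 to 2096 against 1070.3 to 2425 (0 of 5 tested higher), and lymphocyte markers to 0.888 to 1.299 against 0.524 to 1.19 (0 tested). Skeletal muscle markers summed to 33.8 to 36.4 against 34.5 to 35.6, of which Myot, itself a Z-disc gene of the heart, made up 30.2 to 33.7. The part of these cells in the Z-disc values was not tested.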
